A study of Rattus norvegicus with 50 samples.

Results

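Chemokines and their receptors were followed in the whole blood of rats with a chemically induced arthritis of the knee and of intact rats. The members were chosen by name: every probe set of the array that carries a single gene symbol of the Ccl, Ccr, Cxcl, Cxcr, Cx3cl, Cx3cr, Xcl or Xcr families. This gave 47 of 36685 probe sets, of which 14824 carry 1 symbol. They stand for 47 genes with 1 probe set each, 29 ligands and 18 receptors. By family, there were 18 CC, 9 CXC, 1 CX3C and 1 XC ligands, and 10 CC, 6 CXC, 1 CX3C and 1 XC receptors. Cxcl12, Cxcl3 and Ccl27 were not analysed here.

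The study asked how blood transcripts change while joint disease develops. Male Wistar rats received a single injection of sodium monoiodoacetate (MIA), an inhibitor of glycolysis that kills cartilage cells, into the cavity of the right knee, and naive rats were left intact. The comparison therefore has no group given the vehicle alone, and the model shows joint damage from a toxin rather than spontaneous osteoarthritis. The labels give 6 MIA rats and 4 naive rats, and tail vein blood of each rat was taken at days 0, 2, 14, 21 and 28, where day 0 preceded the injection. The methods state 6 samples in each group, which differs from the 4 naive rats of the labels, and the labels were followed. All rats share strain, sex and the repeated bleeding. Their age was not given in the sources used here.

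Chemokines are small secreted proteins that guide the movement of leukocytes, and their receptors are G protein-coupled receptors on the surface of the responding cells. Each kind of blood leukocyte carries its own set of receptors: Cxcr2 marks neutrophils, Ccr2 classical monocytes, Ccr3 eosinophils and basophils, Cx3cr1 monocytes and natural killer (NK) cells, and Ccr7 naive T cells and B cells. Many ligands are made in tissues such as inflamed synovium, endothelium or lymph node stroma, while a few, among them Ccl3, Ccl4 and Ccl5, are also made by leukocytes in circulation. In whole blood, fewer cells of a type and less RNA per cell cannot be told apart.

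One array stood apart. The log2 signals of MIA day 21 replicate 4 had an SD of 1.00, while the SDs of the remaining 49 lay between 1.80 and 1.99. Its mean correlation with the other arrays was 0.243, against 0.920 to 0.954. It was left out of all values below unless stated. Adding it back turned the sign of 17 of the 47 member estimates at MIA day 21, so that day's values rest on leaving it out. Erythroid and T cell markers were present: at MIA day 0 the erythroid list averaged 9.01 log2 units and the T cell list 6.28. The list of eosinophil and basophil markers averaged 2.31, close to the median of 2.26 for all probe sets. That level does not show that these markers were present.

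Signals were log2 values per probe set, and the median of the mean signals of all probe sets was 2.26. In all, 31 members had means at or above it, 14 of 18 receptors and 17 of 29 ligands. The other 16 had means below it, and for signals that low a low level and background cannot be separated here. A level on this scale belongs to its own probe set and was compared only with the same probe set on other arrays.

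By day 28 the chemokine genes that passed the test had all risen, in MIA rats and in naive rats. Days were compared with limma, and a member counts as called where its p, adjusted by Benjamini and Hochberg's method over all probe sets, was under 0.05. In MIA rats, 4 of 47 members (8.51%) were higher at day 28 than at day 0 and none was lower. They were the ligands Ccl6 and Ccl3 and the receptors Cxcr2 and Ccr3. Over all probe sets, 4.26% were called in that comparison, 2.39% as higher and 1.87% as lower. In naive rats, 3 of 47 members (6.38%) were higher, namely Ccl6, Ccr3 and Cxcr2, against 2.04% of all probe sets called with 1.16% as higher and 0.886% as lower. The split over all probe sets moved with the scaling: at MIA day 28 it was 1.18% as higher and 2.12% as lower after a second quantile normalization, and 5.32% and 1.49% after a shift to equal medians. At naive day 28 these were 1.12% and 1.34%, and 1.58% and 0.785%. At days 2, 14 and 21 no member was called in MIA rats, where 0%, 0% and 0.665% of all probe sets were, and none in naive rats, where 0%, 0.00273% and 0.333% were (0.0382% as higher at naive day 21). At an unadjusted p under 0.05, MIA rats had 0, 5, 10 and 17 of 47 members at days 2, 14, 21 and 28, where 5.65%, 6.65%, 13.6% and 21.5% of all probe sets passed. Naive rats had 1, 5, 9 and 11, where 5.08%, 6.9%, 12.7% and 14.8% passed.

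**Figure D1:**
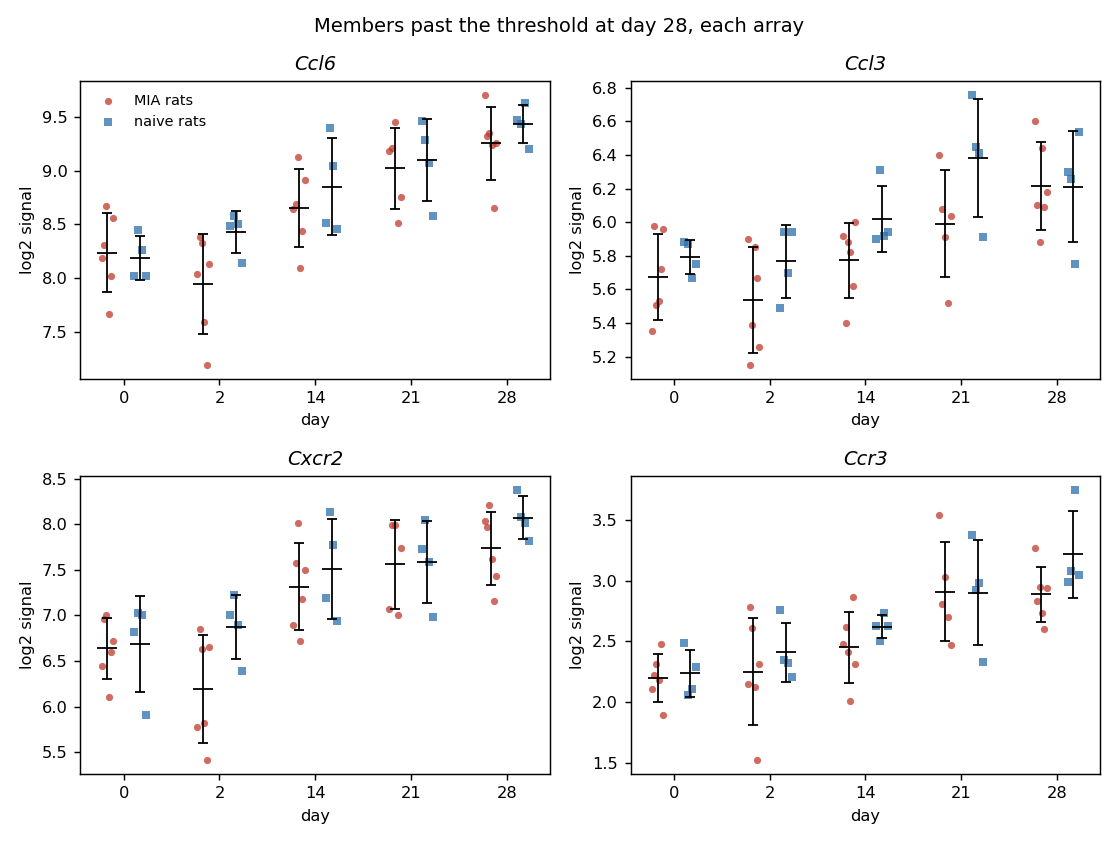
Log2 signal (vertical axes) of the 4 members called at day 28, by day (horizontal axes), for MIA rats (red circles) and naive rats (blue squares). Each point is 1 array, black bars show the mean and SD, and MIA day 21 replicate 4 is left out. Ccl6 averaged 9.26 in MIA rats and 9.44 in naive rats at day 28.

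Ccl6, a rodent ligand of Ccr1 made by myeloid cells, had the smallest p among the members in both treatments. In MIA rats at day 28 its lowest, median and highest signals were 8.65, 9.29 and 9.71, against 7.67, 8.25 and 8.67 at day 0. The groups just overlapped, and all 6 rats were higher at day 28. The change was 1.02 ± 0.20 log2 units (SE, as for every ± beside a change, limma, adjusted p = 0.00251), a 2.03-fold rise. In naive rats the signals were 9.47, 9.44, 9.63 and 9.20 at day 28, against 8.02, 8.45, 8.26 and 8.02 at day 0. Here the groups were apart, with a change of 1.25 ± 0.25 (limma, adjusted p = 0.00472), a 2.38-fold rise. The mean signals of Ccl6 over days 0, 2, 14, 21 and 28 were 8.24, 7.94, 8.65, 9.02 and 9.26 in MIA rats. In naive rats the means of the same days were 8.19, 8.43, 8.85, 9.10 and 9.44. At day 21 its change was 0.78 ± 0.21 in MIA rats (adjusted p = 0.064) and 0.91 ± 0.25 in naive rats (adjusted p = 0.0877), neither past the threshold. With MIA day 21 replicate 4 added back, the MIA change at day 21 turned to -0.14 ± 0.49 (adjusted p = 0.908).

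Ccl3, which attracts leukocytes through Ccr1, was called in MIA rats alone. Its lowest, median and highest signals there were 5.88, 6.14 and 6.60 at day 28, against 5.35, 5.63 and 5.98 at day 0, with an overlap and with 6 of 6 rats higher. The change was 0.54 ± 0.15 (limma, adjusted p = 0.0375). Naive rats had 6.30, 6.26, 5.75 and 6.54 at day 28, against 5.88, 5.87, 5.67 and 5.75 at day 0. All 4 naive rats were higher at day 28, by 0.42 ± 0.19 (adjusted p = 0.279). The difference between these changes, MIA minus naive, was 0.12 ± 0.24 (adjusted p = 1), so the call in one treatment does not show a difference between them, and without MIA replicate 1 this difference was -0.02. Ccl3 lost its call without MIA replicate 1, 3 or 4, and when the arrays were quantile normalized again (0.40 ± 0.13, adjusted p = 0.0823).

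Cxcr2, through which neutrophils follow Cxcl1 and Cxcl2, had the largest change of the 47 members at day 28 in each treatment. In MIA rats at day 28 the lowest, median and highest signals were 7.16, 7.79 and 8.21, against 6.11, 6.66 and 7.00 at day 0. Every value of day 28 lay above every value of day 0. The change was 1.10 ± 0.26 (limma, adjusted p = 0.0107), a 2.14-fold rise. The naive rats had 8.38, 8.08, 8.02 and 7.82 at day 28, against 6.82, 7.03, 7.00 and 5.91 at day 0, again without overlap, and the change was 1.38 ± 0.31 (adjusted p = 0.0115). Over days 0, 2, 14, 21 and 28 the mean Cxcr2 signals were 6.64, 6.19, 7.31, 7.56 and 7.74 in MIA rats. Naive rats had means of 6.69, 6.88, 7.51, 7.59 and 8.08. At day 2, 6 of 6 MIA rats lay below their own day 0 (-0.45 ± 0.26, adjusted p = 0.903) and 3 of 4 naive rats above it (0.19 ± 0.31, adjusted p = 1), and neither value was called. Of 10 neutrophil markers, 1 had an estimate above 0 at MIA day 2 (median -0.39) and 4 at naive day 2 (median -0.02), none of them called. The mean over that list ranged between 4.74 and 5.66 at MIA day 2, against 5.28 and 6.11 at MIA day 0, and its part in the Cxcr2 values was not tested.

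Ccr3, the eotaxin receptor, was called in both treatments on a faint probe set. Its means at day 0 were 2.20 in MIA rats and 2.24 in naive rats, both below 2.26, so its changes start from a level that cannot be separated from background. In MIA rats its lowest, median and highest signals were 2.60, 2.88 and 3.27 at day 28, against 1.89, 2.20 and 2.48 at day 0. The groups were apart, and the change was 0.69 ± 0.18 (limma, adjusted p = 0.0206). In naive rats the signals were 2.99, 3.08, 3.75 and 3.05 at day 28, against 2.49, 2.06, 2.11 and 2.29 at day 0. These groups were apart as well, by 0.98 ± 0.22 (adjusted p = 0.0101). At day 21 Ccr3 came nearest to the threshold in MIA rats, at 0.71 ± 0.19 (adjusted p = 0.0551), with signals of 3.54, 2.81, 3.03, 2.70 and 2.47 in 5 rats. On all 50 arrays this change was 0.50 ± 0.21 (adjusted p = 0.255).

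How firm these calls were differed by rat and by fit. When each of the 10 rats was left out in turn, Ccl6 was called at MIA day 28 in 10 of 10 fits, Cxcr2 in 9, Ccl3 in 7 and Ccr3 in 6, and at naive day 28 Ccl6 in 9, Ccr3 in 8 and Cxcr2 in 7. Without MIA replicate 1 only 1 member, Ccl6, stayed called at MIA day 28, and without MIA replicate 3 there were 2. Without naive replicate 3 none stayed called at naive day 28. With the odd array included the estimates at day 28 were the same but the standard errors grew, and 0 members were called in either treatment, against 0.0109% of all probe sets in MIA rats and 0.00545% in naive rats. The adjusted p at MIA day 28 was then 0.408 for Ccl6, 0.277 for Cxcr2, 0.186 for Ccr3 and 0.416 for Ccl3, and at naive day 28 it was 0.672 for Ccl6, 0.473 for Cxcr2 and 0.211 for Ccr3.

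Each rat was bled at every day, so the changes were also fitted within rats, with the rat as a block. This fit called 11 of 47 members at MIA day 28, all higher, against 7.58% of all probe sets (4.4% as higher). They were Ccl3, Ccl5, Ccl6, Ccr1, Ccr2, Ccr3, Cx3cr1, Cxcr2, Cxcr4, Cxcr5 and Cxcr6. At naive day 28 it called 6, all higher, against 4.59% of all probe sets (2.43% as higher): Ccl4, Ccl6, Ccr1, Ccr2, Ccr3 and Cxcr2. It called 4 members at MIA day 21 (Ccl5, Ccl6, Ccr3 and Cxcr2), all higher, against 2.68% of all probe sets and 0.834% as higher, and 2 at naive day 21 (Ccl6 and Cxcr2), both higher, against 1.85% and 0.341% as higher. At MIA day 14 it called no member, against 0.0191% of all probe sets (0.0164% as lower). On all 50 arrays the blocked fit called none at day 21, against 1.59% of all probe sets in MIA rats and 0.0191% in naive rats. The MIA day 21 estimates were then -0.40 for Ccl5, -0.14 for Ccl6, 0.50 for Ccr3 and 0.25 for Cxcr2, with adjusted p values of 0.733, 0.89, 0.195 and 0.718. At day 28 that fit called 1 member in each treatment, Ccr1 both times, with an adjusted p of 0.0437 in MIA rats, against 0.346% of all probe sets called, and 0.0223 in naive rats, against 0.128%.

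**Figure D2:**
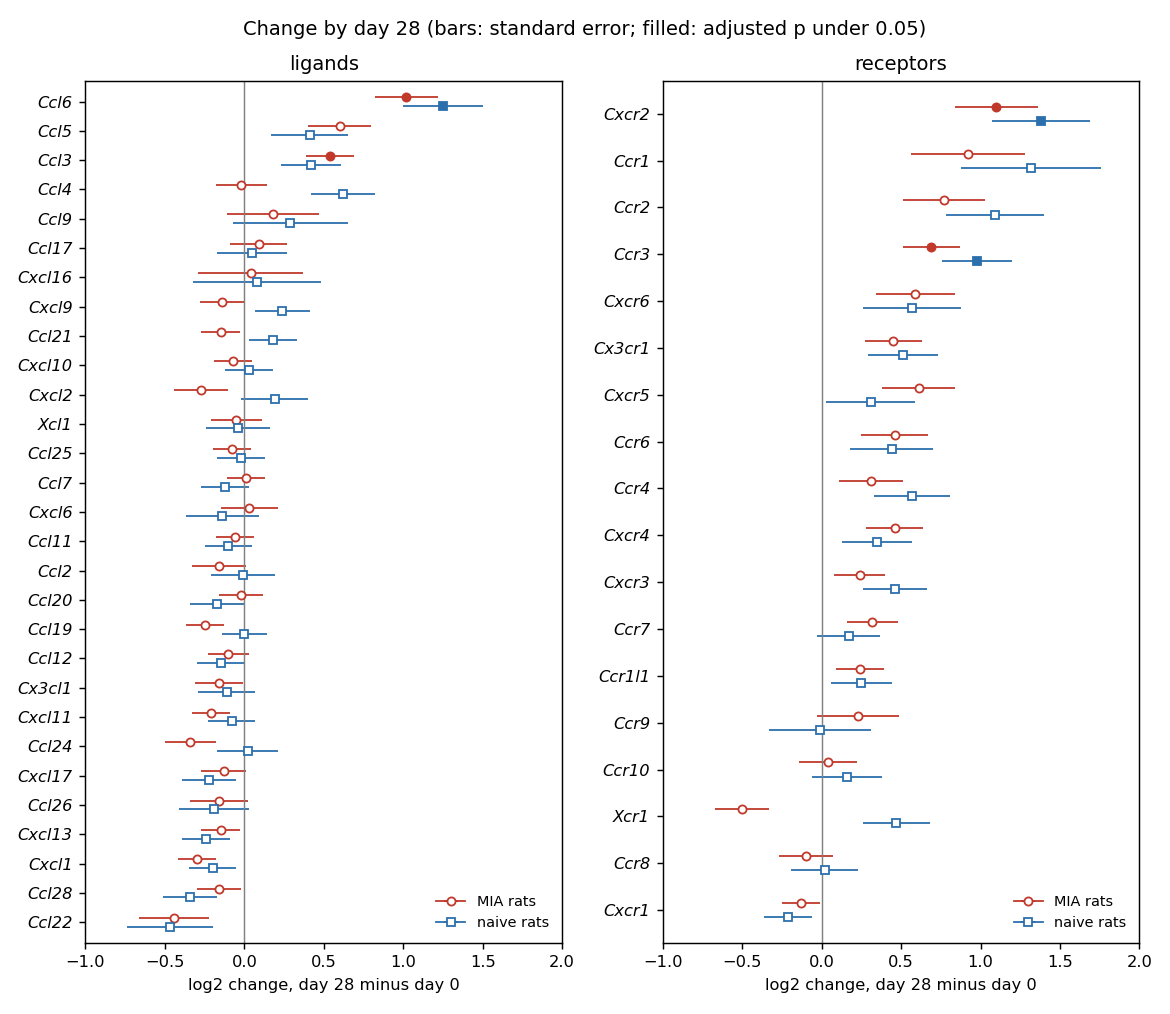
Change by day 28 (log2 units, day 28 minus day 0, horizontal axes) of the 29 ligands (left) and 18 receptors (right), each on a line of its own, for MIA rats (red circles, above) and naive rats (blue squares, below). Bars are standard errors and filled symbols have an adjusted p under 0.05 without the rat as a block. Receptor changes lie mostly right of 0, with medians of 0.39 in MIA rats and 0.45 in naive rats, and ligand changes lie on both sides of it.

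Most receptors had estimates above 0 at day 28 and most ligands did not, a difference between the families that was not tested. In MIA rats, 15 of 18 receptors had an estimate above 0 and their median change was 0.39, while 8 of 29 ligands did, with a median of -0.10. The median over all probe sets was -0.02. In naive rats, 16 of 18 receptors and 12 of 29 ligands had estimates above 0, with medians of 0.45 and -0.02, against -0.01 over all probe sets. Receptors were bright more often than ligands. At MIA day 28 the 14 receptors with means at or above 2.26 had a median change of 0.46. All probe sets that bright had 0.14, whereas probe sets below 2.26 had -0.09. Most of the 17 ligands that bright had estimates below 0, with a range from -0.44 for Ccl22 to 1.02 for Ccl6. The part of brightness in the receptor and ligand pattern was not tested. The spread of signals over an array moved with the day: its median SD was 1.96 at MIA day 28, against 1.90 at MIA day 0, and 1.93 at naive day 28, against 1.90 at naive day 0. The part of this spread in the changes was not tested. When the arrays were quantile normalized again, which gives every array the same spread, the changes of Ccl6, Cxcr2 and Ccr3 at MIA day 28 were 1.07, 1.09 and 0.69 and stayed called, while Ccl3 was at 0.40 and lost its call. The receptor median was then 0.30 at MIA day 28, with 15 of 18 above 0, and 0.32 at naive day 28, with 17 of 18 above 0. Single receptors moved closer to 0 at MIA day 28, such as Cxcr3, with 0.05 after and 0.24 before, and Cxcr4, with 0.31 after and 0.46 before.

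Among the myeloid receptors, Ccr1 and Ccr2 had large changes with a wide spread between rats. Ccr1, the receptor of Ccl3, Ccl5 and Ccl6 on neutrophils and monocytes, had a lowest, median and highest signal of 5.44, 6.03 and 6.57 at MIA day 28, against 3.61, 5.21 and 6.22 at MIA day 0. All 6 MIA rats were higher, by 0.92 ± 0.36 (limma, adjusted p = 0.125). In naive rats it had 6.64, 6.41, 7.22 and 6.39, against 5.17, 5.51, 5.94 and 4.76, and the groups were apart (1.32 ± 0.44, adjusted p = 0.11). With the rat as a block both changes passed, with an SE of 0.21 and an adjusted p of 0.00594 in MIA rats and an SE of 0.26 and an adjusted p of 0.00166 in naive rats. Ccr2, the Ccl2 receptor of monocytes, gave 7.64, 8.15 and 8.48 at MIA day 28, against 6.71, 7.36 and 7.86 at MIA day 0 (0.77 ± 0.26, adjusted p = 0.0722). In naive rats the Ccr2 signals were 7.95, 8.01, 8.30 and 8.13, against 6.29, 7.06, 7.51 and 7.17 (1.09 ± 0.31, adjusted p = 0.054). With the block its adjusted p was 0.0126 in MIA rats and 0.0045 in naive rats.

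At MIA day 28, receptors of lymphocytes and NK cells had smaller estimates than Ccr1 and Ccr2, a difference that was not tested. Cx3cr1, which monocytes carry as well, is given with them. Cx3cr1, the fractalkine receptor, was at 5.69, 6.12 and 6.28 (lowest, median, highest) at MIA day 28, against 5.26, 5.66 and 5.87 at MIA day 0, a difference of 0.45 ± 0.18 (limma, adjusted p = 0.144, and 0.0276 with the rat as a block). Cxcr6, the receptor of Cxcl16 on activated T cells and NK cells, was apart between MIA day 28 and MIA day 0, at 3.30, 3.46 and 4.22, against 2.53, 3.13 and 3.28 (0.59 ± 0.25, adjusted p = 0.157, and 0.0481 with the block). Cxcr5, which leads B cells into follicles, differed by 0.61 ± 0.23 in MIA rats (adjusted p = 0.11, and 0.0102 with the block) and by 0.31 ± 0.28 in naive rats (adjusted p = 0.681). Cxcr4, the receptor of Cxcl12, differed by 0.46 ± 0.18 in MIA rats (adjusted p = 0.12, and 0.0182 with the block) and by 0.35 ± 0.22 in naive rats (adjusted p = 0.48). Ccr7, the lymph node homing receptor with a mean signal of 7.63, differed by 0.32 ± 0.16 in MIA rats (adjusted p = 0.244) and by 0.17 ± 0.20 in naive rats (adjusted p = 0.769).

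Counting groups that did not overlap gave 3 members higher at MIA day 28 (Ccr3, Cxcr2 and Cxcr6), where 2.07% of all probe sets were, and 7 at naive day 28 (Ccl4, Ccl6, Ccr1, Ccr2, Ccr3, Cxcr2 and Xcr1), where 4.64% were. No member was lower without overlap in either. All 6 MIA rats were higher at day 28 than at day 0 for 12 members, against 8.52% of all probe sets, and all 4 naive rats for 12, against 12.4%. All MIA rats were lower for 2 members, Ccl12 and Ccl24, against 7.07%, and all naive rats for 1, Cxcl1, against 10.7%. Ccl3, Ccl6, Ccr1, Ccr2, Ccr3, Cx3cr1, Cxcr2 and Cxcr6 were in both sets.

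The ligands of these receptors did not pass the test in blood, apart from Ccl6 and Ccl3. Ccl5, the T cell and NK cell chemokine with a mean signal of 8.16, gave 8.02, 8.31 and 8.97 at MIA day 28, against 7.27, 7.76 and 8.16 at MIA day 0 (0.60 ± 0.20, limma, adjusted p = 0.0669, and 0.00314 with the rat as a block), and 8.93, 8.65, 7.63 and 8.89 at naive day 28, against 8.31, 8.13, 7.67 and 8.35 at naive day 0 (0.41 ± 0.24, adjusted p = 0.444). Naive replicate 3 was the one rat that was not higher. Cxcl1 and Cxcl2, ligands of Cxcr2, differed by -0.30 ± 0.12 and -0.27 ± 0.17 at MIA day 28 (adjusted p = 0.149 and 0.362). Ccl2 and Ccl7, ligands of Ccr2, differed by -0.16 ± 0.17 and 0.01 ± 0.12. Ccl11 and Ccl24, ligands of Ccr3, differed by -0.06 ± 0.12 and -0.34 ± 0.16, and Ccl24 was lower in 6 of 6 MIA rats (adjusted p = 0.21). Ccl7 and Ccl11 had mean signals of 1.49 and 2.10, below 2.26, so their values do not show that these ligands were unchanged. Ccl24 and Cxcl2, at 2.33 and 2.35, were just above it.

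None of the remaining pairs passed the test. At MIA day 28 the ligands Cx3cl1, Ccl20, Ccl25, Ccl28, Ccl17, Ccl22, Cxcl6, Cxcl9, Cxcl10, Cxcl11, Cxcl13, Cxcl16, Ccl19, Ccl21 and Xcl1 had estimates between -0.44 for Ccl22 and 0.09 for Ccl17. Their partners Ccr6, Ccr9, Ccr10, Ccr4, Cxcr1 and Cxcr3 had estimates between -0.13 for Cxcr1 and 0.46 for Ccr6, which was higher in 6 of 6 MIA rats. Of these ligands and partners, Cx3cl1, Ccl20, Ccl21, Cxcl6, Cxcl9, Cxcl10, Cxcl11, Cxcl13, Ccr10 and Cxcr1 had mean signals below 2.26. At such levels a low signal and background cannot be separated, so their estimates do not show that they were unchanged. Cxcr1, the second neutrophil receptor for Cxcl6, sits next to Cxcr2 on chromosome 9, and with a mean signal of 1.77 it differed by -0.13 ± 0.12 in MIA rats and -0.21 ± 0.15 in naive rats, while Cxcr2 rose in both. Of the members not yet named, Ccl9, Ccl12, Ccl26, Cxcl17, Ccr1l1 and Ccr8 had estimates between -0.16 and 0.24 in MIA rats at day 28. Of them, Ccl12, Ccl26, Ccr1l1 and Ccr8 had mean signals below 2.26 as well.

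Neighbouring genes were compared next, with gene order taken from the RefSeq annotation of the GRCr8 assembly. The members lie on 11 chromosomes, 12 of them on chromosome 10 and 11 on chromosome 8. Chromosome 8 carries a run of 7 receptors in the order Ccr9, Cxcr6, Xcr1, Ccr1, Ccr3, Ccr1l1 and Ccr2, with 1 other coding gene inside it, between Ccr9 and Cxcr6. Their changes at MIA day 28 were 0.23, 0.59, -0.50, 0.92, 0.69, 0.24 and 0.77, and at naive day 28 they were -0.01, 0.57, 0.47, 1.32, 0.98, 0.25 and 1.09. Only Ccr3 was called in this run. On chromosome 10 the ligands Ccl5, Ccl9, Ccl6, Ccl3 and Ccl4 follow each other with no other coding gene between them, with changes of 0.60, 0.18, 1.02, 0.54 and -0.02 at MIA day 28 and 0.41, 0.29, 1.25, 0.42 and 0.62 at naive day 28. A second run on the same chromosome, Ccl2, Ccl7, Ccl11 and Ccl12, had -0.16, 0.01, -0.06 and -0.10 at MIA day 28.

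**Figure D3:**
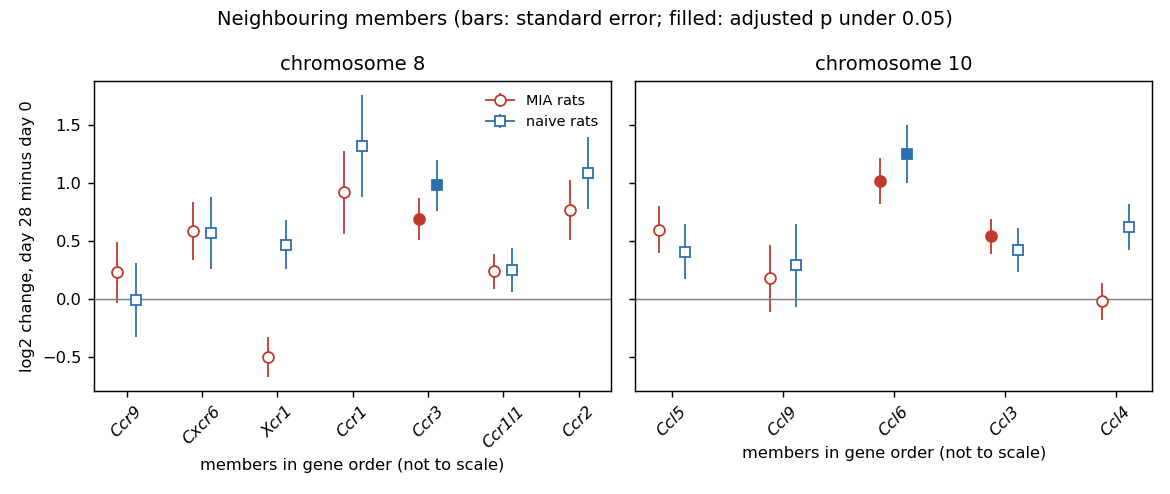
Change by day 28 (log2 units, vertical axis) of neighbouring receptors on chromosome 8 (left) and neighbouring ligands on chromosome 10 (right), in gene order and not to scale, for MIA rats (red circles) and naive rats (blue squares). Bars are standard errors and filled symbols have an adjusted p under 0.05. In the receptor run, Xcr1 stood at -0.50 in MIA rats and 0.47 in naive rats.

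Promoter sequences are shown for the 3 members called in both treatments and for Ccr1 and Ccr2, which lie near Ccr3 and were called with the rat as a block, so that promoters of members with similar changes can be read side by side. RefSeq's table for GRCr8 held a promoter for 36 of 47 members and 33469 promoters in all. Each line gives the 250 bases before the annotated start, 5′ to 3′ on the strand of the gene, and the start may be one of several. Capitals mark matches, on either strand, to TATAAA (the TATA box), GAGGAA (the core of PU.1 sites), TTNNGCAA (C/EBP), GATAA (the GATA core) or the NF-kB motif (GGG and TTCC with 3 bases between them). These motifs were chosen with the members' values known. The windows are chr10:68883367-68883616 on the minus strand for Ccl6, chr9:83178395-83178644 on the plus strand for Cxcr2, chr8:132499999-132500248 on the plus strand for Ccr3, chr8:132439267-132439516 on the minus strand for Ccr1 and chr8:132611953-132612202 on the plus strand for Ccr2.
Ccl6: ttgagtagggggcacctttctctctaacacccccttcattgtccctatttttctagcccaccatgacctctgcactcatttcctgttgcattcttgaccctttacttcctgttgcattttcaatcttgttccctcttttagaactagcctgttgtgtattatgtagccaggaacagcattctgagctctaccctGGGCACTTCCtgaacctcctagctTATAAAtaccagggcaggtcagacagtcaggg
Cxcr2: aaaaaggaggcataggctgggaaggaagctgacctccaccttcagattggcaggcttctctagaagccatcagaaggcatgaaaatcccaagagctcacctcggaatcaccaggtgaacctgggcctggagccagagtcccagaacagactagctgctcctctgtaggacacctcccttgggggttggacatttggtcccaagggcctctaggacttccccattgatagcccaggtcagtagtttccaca
Ccr3: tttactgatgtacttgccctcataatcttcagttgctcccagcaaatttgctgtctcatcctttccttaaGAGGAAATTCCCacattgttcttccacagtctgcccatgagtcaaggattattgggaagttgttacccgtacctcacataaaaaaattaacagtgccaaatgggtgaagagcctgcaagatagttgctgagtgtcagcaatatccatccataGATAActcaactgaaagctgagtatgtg
Ccr1: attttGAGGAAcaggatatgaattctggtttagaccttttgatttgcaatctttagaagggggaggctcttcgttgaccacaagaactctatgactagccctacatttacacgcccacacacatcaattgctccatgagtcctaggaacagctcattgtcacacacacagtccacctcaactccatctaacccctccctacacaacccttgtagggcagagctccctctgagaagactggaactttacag
Ccr2: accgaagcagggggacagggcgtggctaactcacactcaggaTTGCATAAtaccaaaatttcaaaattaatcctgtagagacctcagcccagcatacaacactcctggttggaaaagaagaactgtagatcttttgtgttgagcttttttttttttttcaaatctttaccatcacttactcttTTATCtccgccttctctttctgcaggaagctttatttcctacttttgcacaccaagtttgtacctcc
The Ccl6 window held TATAAA at bases 32 to 27 before the start and an NF-kB match, GGGCACTTCC, at bases 56 to 47. In Ccr3, GAGGAA at bases 180 to 175 overlapped an NF-kB match on the other strand, printed as GGAAATTCCC, at bases 178 to 169, and GATAA stood at bases 28 to 24. Ccr1 held GAGGAA at bases 245 to 240. Ccr2 held a C/EBP match on the other strand at bases 208 to 201 and a GATA match on the other strand at bases 67 to 63. The Cxcr2 window held none of these letters. Over all promoters, TATAAA stood in 12.9%, GAGGAA in 23.3%, TTNNGCAA in 9.22%, GATAA in 23.5% and the NF-kB motif in 4.53%. Over the 36 member promoters the counts were 11, 16, 5, 8 and 10, which is 30.6%, 44.4%, 13.9%, 22.2% and 27.8%. A match is a description of the letters and was not tested as a binding site.

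The MIA rats were then set against the naive rats. No member was called for a difference between the MIA change and the naive change at day 2, 14, 21 or 28, nor over the 4 days together, nor between the groups at day 0, where 0% of all probe sets were called in each of these 6 comparisons. At an unadjusted p under 0.05 (limma) there were 1, 1, 0 and 2 of 47 members at days 2, 14, 21 and 28, where 5.61%, 4.22%, 3.6% and 4.06% of all probe sets passed. There was 1 over the 4 days (4.67%) and 1 at day 0 (4.24%). The blocked fit gave 4, 1, 0 and 2 at days 2, 14, 21 and 28, where 6.08%, 4.75%, 4.17% and 4.68% passed. For the members called at day 28, the MIA change minus the naive change was -0.23 ± 0.32 for Ccl6, -0.29 ± 0.40 for Cxcr2 and -0.29 ± 0.28 for Ccr3, smaller than or close to its standard error each time. The 4 naive rats limit how small a difference could be seen, since these standard errors were between 0.28 and 0.40 log2 units.

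Xcr1, the receptor through which cross-presenting dendritic cells follow Xcl1, had the smallest p of the members for a difference at day 28. In MIA rats it gave 2.21, 1.83, 1.98, 2.37, 2.48 and 1.92 at day 28, against 3.31, 2.59, 2.49, 2.50, 2.42 and 2.50 at day 0, and 1 of 6 rats was higher (-0.50 ± 0.17, limma, adjusted p = 0.0756). This change was called as lower with array weights (-0.51, adjusted p = 0.0263) and without dim probe sets (-0.50, adjusted p = 0.0488). In naive rats it gave 2.31, 2.49, 2.72 and 2.95, against 2.31, 1.93, 2.27 and 2.07, with 4 of 4 rats higher, 1 of them by less than the decimals printed (0.47 ± 0.21, adjusted p = 0.262). The difference of the changes was -0.98 ± 0.27 (limma, adjusted p = 1). Xcr1 averaged 2.13 at MIA day 28 and 2.14 at naive day 0, both below 2.26, so 1 end of each change cannot be separated from background. The groups already stood apart at day 0, before any injection, with the MIA rats higher by 0.49 ± 0.19 (adjusted p = 1), and day 0 enters both changes. Groups stood apart at day 0 as higher in MIA rats in 0.357% of all probe sets and as lower in 0.382%, and Ccr6, at 3.71 in MIA rats and 4.16 in naive rats, was the one member apart as lower. Without MIA replicate 1, whose day 0 signal was 3.31, the Xcr1 difference at day 28 was -0.86 and that at day 0 was 0.36. The signals of Xcl1, its ligand, averaged 2.89 and 2.77 at MIA and naive day 28.

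**Figure D4:**
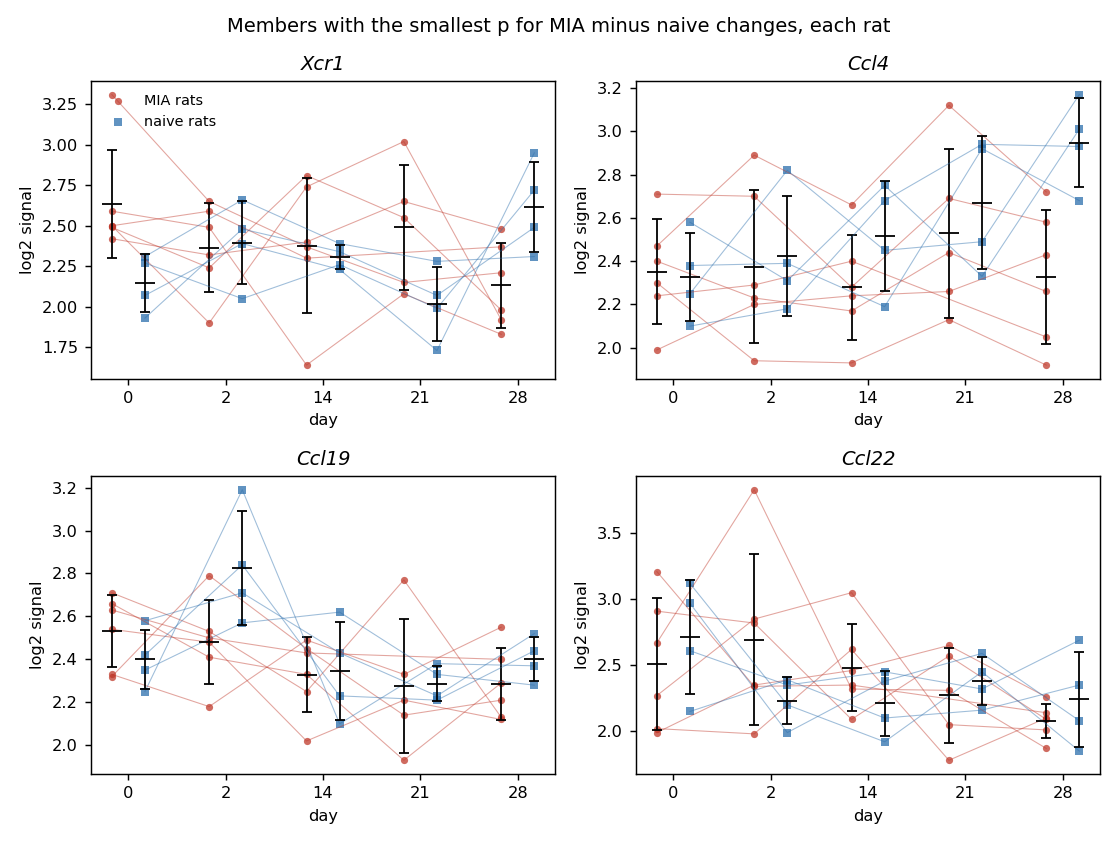
Log2 signal (vertical axes) of Xcr1, Ccl4, Ccl19 and Ccl22 by day (horizontal axes) in MIA rats (red circles) and naive rats (blue squares). Thin lines join the arrays of a rat, black bars show the mean and SD, and MIA day 21 replicate 4 is left out. Xcr1 averaged 2.13 in MIA rats and 2.62 in naive rats at day 28, and 2.64 and 2.14 in the same order at day 0.

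Ccl4, an inflammatory CC ligand made by T cells and monocytes, came second at day 28. It averaged 2.33 ± 0.31 (SD, n = 6) at MIA day 28, against 2.35 ± 0.24 at MIA day 0. In naive rats it gave 2.93, 3.01, 2.68 and 3.17, against 2.10, 2.58, 2.38 and 2.25, with no overlap (0.62 ± 0.20, limma, adjusted p = 0.0963, and 0.0145 with the rat as a block). The difference of the changes was -0.64 ± 0.26 (adjusted p = 1). At day 2 the smallest p values were those of Ccl19, a Ccr7 ligand (-0.48 ± 0.19, adjusted p = 0.776), and Ccl22, a Ccr4 ligand (0.66 ± 0.34, adjusted p = 0.91). Ccl19 at naive day 2 was 2.57, 3.19, 2.84 and 2.71, against 2.35, 2.25, 2.42 and 2.58 at naive day 0, whereas MIA rats averaged 2.48 at day 2 and 2.53 at day 0. MIA replicate 2 had the highest Ccl22 signal of day 2, at 3.83, against 1.98 to 2.85 in the other 5 MIA rats. At day 14 they were Ccr1l1, a gene next to Ccr3 named for its likeness to Ccr1 (-0.59 ± 0.24), and Ccr4 (-0.59 ± 0.31), and at day 21 Cxcl17 (0.36 ± 0.23) and Cxcl10, an interferon-induced ligand of Cxcr3 (0.29 ± 0.20), all with an adjusted p of 1.

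Within a treatment days 2 and 14 gave no call either. The smallest p in MIA rats belonged to Cxcr5 at day 2 (0.46 ± 0.23, limma, adjusted p = 0.875, higher in 6 of 6 rats) and to Cxcr2 at day 14 (0.67 ± 0.26, adjusted p = 0.668, higher in 6 of 6 rats). In naive rats it belonged to Ccl19 at day 2 (0.43 ± 0.14, adjusted p = 0.753) and to Ccr1l1 at day 14 (0.58 ± 0.19, adjusted p = 0.575), each higher in 4 of 4 rats. Ccr2 in naive rats at day 14 was close behind (0.94 ± 0.31, adjusted p = 0.577).

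Genes that act beside or below the receptors were read from a list of 52, of which 38 were measured. At MIA day 28, 8 rose and none fell, with a median of 0.28 over the list, and at naive day 28, 4 rose and none fell, with a median of 0.32. Over all probe sets, 2.39% were called as higher at MIA day 28 and 1.16% at naive day 28. The list was bright, with an average of 5.78 at MIA day 0, against a median of 2.26 for all probe sets. Bright probe sets as a whole had a positive median change at MIA day 28, and the part of brightness in this list was not tested. The 3 with the smallest p in MIA rats were Rac2, a small GTPase that acts on the leukocyte cytoskeleton (0.49 ± 0.09, limma, adjusted p = 0.0021), Elmo1, which links receptors to Rac activation (0.46 ± 0.11, adjusted p = 0.0168), and Rgs2, a brake on G protein signalling (0.75 ± 0.20, adjusted p = 0.0216). In naive rats Rac2 rose by 0.43 ± 0.12 (adjusted p = 0.0392), Elmo1 by 0.67 ± 0.14 (adjusted p = 0.00733) and Rgs2 by 0.87 ± 0.24 (adjusted p = 0.0413). The atypical receptors Ackr2, Ackr3, Ackr4 and Ccrl2, which scavenge or present chemokines, had estimates between -0.19 and -0.02 at MIA day 28, and the platelet chemokines Pf4 and Ppbp had 0.17 and -0.21, none of them called.

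Among the cell type lists, NK and cytotoxic cell markers had the most calls as higher at day 28 in both treatments. The other lists had few or none. Over all probe sets, 2.39% were called as higher and 1.87% as lower at MIA day 28, and 1.16% and 0.886% at naive day 28. Of 12 NK and cytotoxic cell markers, 7 rose at MIA day 28 (median 0.71) and 7 at naive day 28 (median 0.88). The mean over this list ranged between 5.11 and 5.46 at MIA day 28, against 4.29 and 4.78 at MIA day 0, and between 5.06 and 5.82 at naive day 28, against 4.49 and 4.86 at naive day 0. Of 10 neutrophil markers, 2 rose at MIA day 28 (median 0.58), Retnlg by 1.36 ± 0.22 and Csf3r by 0.98 ± 0.22 (limma, adjusted p = 0.000288 and 0.00969), and 1 at naive day 28 (median 0.57), Csf3r by 1.08 ± 0.27. Only 7 of the 10 had estimates above 0 at MIA day 28, and 7 at naive day 28. The neutrophil mean ranged between 5.80 and 6.44 at MIA day 28, against 5.28 and 6.11 at MIA day 0, and between 5.54 and 6.51 at naive day 28, against 4.91 and 6.01 at naive day 0.

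For the eosinophil receptor Ccr3, 1 of 9 eosinophil and basophil markers rose in each treatment, and it was Il5ra, the interleukin 5 receptor chain, by 0.93 ± 0.23 in MIA rats (limma, adjusted p = 0.018) and 1.22 ± 0.29 in naive rats (adjusted p = 0.0148). The median of the list was -0.04 at MIA day 28, with 3 of 9 above 0, and -0.03 at naive day 28, with 4 of 9 above 0. Its mean ranged between 2.29 and 2.67 at MIA day 28, against 2.15 and 2.39 at MIA day 0, and between 2.49 and 2.54 at naive day 28, against 2.28 and 2.47 at naive day 0. The granule genes Prg2 and Epx had mean signals of 1.81 and 2.21, below the median of all probe sets, and changes of -0.22 and -0.20 at MIA day 28. Of 8 monocyte markers, 1 rose in each treatment, Lyz2, by 0.67 ± 0.13 in MIA rats (adjusted p = 0.00185) and 0.67 ± 0.16 in naive rats (adjusted p = 0.0158), and the list medians were 0.20 and 0.18. The mean over the monocyte list ranged between 5.92 and 6.38 at MIA day 28, against 5.64 and 6.08 at MIA day 0. No T cell, B cell or platelet marker was called, with medians of 0.42, 0.22 and 0.00 at MIA day 28, and of 0.21, 0.09 and -0.05 at naive day 28. Of 7 probe sets for erythroid genes, 3 fell at MIA day 28 (Slc4a1, Slc25a37 and Epb42) and 2 at naive day 28 (Klf1 and Slc4a1), with a median of -0.62 in each treatment. Of 7 keratinocyte and fibroblast markers, Col1a1 and Col3a1 fell at MIA day 28 (list median -0.39) and none was called at naive day 28 (-0.37), and no endothelial marker was called (medians -0.21 and -0.11). The part of these cell types in the changes of Ccl6, Cxcr2, Ccr3 and the other members was not tested.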

How the data were processed

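Total RNA of whole blood from 6 MIA rats and 4 naive rats at 5 times was hybridised to 50 one-colour rat gene arrays, 1 per rat and day. The authors subtracted background, quantile normalized and log2-transformed the signals, and the deposited table holds log2 values between -0.08 and 12.77. The submitters' processing notes name oligo 1.36.1. How probes were summarised and the genome build of the array are not given in the sources used here. Array medians lay between 2.12 and 2.38, and no depth applies to arrays, so their number limits the precision.

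Groups followed the labels. Changes were fitted in limma 3.58.1 (R 4.3.3) over all 36685 probe sets, with 1 mean per group and day, 49 arrays and Benjamini-Hochberg adjustment over all probe sets. This gave 14 comparisons: each later day against day 0 within a treatment, the difference of these changes between treatments at each day and over the 4 days, and the groups at day 0. The labels give an animal number to every array. Deviations from the group means correlated at 0.0821 on average within a rat and at -0.0294 between rats (per rat 0.0473 to 0.134), and the rat was used as a block in a second fit. In the first fit p-values rest on the spread between arrays of a group, and the bleedings of a rat count as independent. In the blocked fit they rest on the spread that remains within rats.

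The text names every member past the threshold. Where a comparison had none, it names the member with the smallest p, and 2 members for MIA minus naive. Listed ligand and receptor pairs are given as values, as are up to 3 genes from each other list with the smallest p at MIA day 28. Ccr1, Ccr2, Cxcr6 and neighbouring genes were added after their values were seen. The other lists were chemokine pathway genes and markers of neutrophils, monocytes, NK and cytotoxic cells, T cells, B cells, eosinophils and basophils, platelets, erythroid cells, endothelium, and keratinocytes and fibroblasts. The members and lists were chosen with earlier results of these data known. Gene IDs of 47 of 47 members matched RefSeq (GRCr8). Of the other probe sets, 829 carried several symbols and 21032 none, and these were not named. Alternatives were the rat block, all 50 arrays, array weights, omission of dim probe sets, a shift to equal medians, a second quantile normalization, fits within a treatment and each rat left out. Only the fit without the rat block was tested on simulated data, with independent noise and no odd array. That test does not cover the effect of the rat or of the odd array. Summaries used Python 3.11.15 with pandas 2.3.3, and plots matplotlib 3.10.9.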

Additional observations from a re-analysis of the deposited data

Results flagged for a closer look

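The check for far samples covered 13 members, those called in a comparison or named there for the smallest p. Other members, such as Ccr1, Ccr2, Ccl5 and Cxcr6, were not checked. Among 130 groups of 4 to 6 samples over the 13 members, 7 had a sample set apart from the others. The gap was past Dixon's critical value, where chance calls about 1 in 20 groups. The highest were Ccl3 at naive day 14 in replicate 2, at 6.31 (next 5.94), Ccr3 at naive day 28 in replicate 3, at 3.75 (next 3.08), Cxcl10 at naive day 28 in replicate 3, at 2.13 (next 2.03), and Xcr1 at MIA day 0 in replicate 1, at 3.31 (next 2.59). The lowest were Ccr4 at naive day 14 in replicate 4, at 2.79 (next 3.18), Cxcl10 at naive day 21 in replicate 3, at 1.56 (next 1.84), and Cxcr5 at MIA day 14 in replicate 2, at 4.20 (next 5.56). Naive replicate 3 gave 3 of the 7. In 0 of 188 comparisons of a member did every MIA rat move one way and every naive rat the other.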

How the results depend on the processing

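The count of members called at day 28 depended on the fit. At MIA day 28 it was 4, and 11 with the replicate block (rat as a block), 0 on all 50 arrays, 1 on all 50 arrays with the block (an alternative chosen after seeing the data), 10 with array weights (11.1% of all probe sets) and 7 of 31 without dim probe sets (11.2%), both counts including Xcr1 as lower, and between 1 and 6 when a rat was left out, with 1 without MIA replicate 1 and 2 without MIA replicate 3. The members called at MIA day 28 were Ccl3, Ccl5, Ccl6, Ccr2, Ccr3 and Cxcr2 after the shift to equal medians. After a second quantile normalization they were Ccl6, Ccr3 and Cxcr2. At naive day 28 the count was 3, and 6 with the block, 0 on all 50 arrays, 1 on all 50 arrays with the block, and between 0 and 3 when a rat was left out, with 0 without naive replicate 3. At MIA day 21 it was 0, and 4 with the block, 3 with array weights, 2 without dim probe sets, 1 after the shift to equal medians, 3 after a second quantile normalization, and between 0 and 1 when a rat was left out, with 1 without naive replicate 4. At naive day 21 it was 0, and 2 with the block and 1 after a second quantile normalization. The share of all probe sets called is not given here for fits with a rat left out. It is not given either for the day 21 fits with array weights, without dim probe sets or after rescaling. Those counts are therefore not set against the array as a whole. In the other 10 comparisons the count of members called was 0 under every alternative run. The cause was not tested. Over the member estimates that the text gives with an error, 1019 values under alternatives kept their direction and side of the threshold, 29 fell short of it, 43 passed it and 7 turned round, the last for estimates short of the threshold. Ccl6 at MIA day 21 was -0.14 on all 50 arrays, with and without the block. Ccl11 at MIA day 28 was 0.01 after a second quantile normalization and between -0.13 and 0.02 when a rat was left out. Ccl7 at MIA day 28 was between -0.08 and 0.11 when a rat was left out, and the MIA minus naive change of Ccl3 at day 28 between -0.02 and 0.24. Arrays give no read depth, and 16 of 47 members were dim.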
